A study of Mus musculus with 8 samples.

Results

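The transcriptome described here is that of MC3T3 cells, a mouse osteoblast line, kept for 7 days in mineralizing culture without tumour cell products. Its members are the 4 libraries labelled NCM, numbered NCM1 to NCM4, out of 8 libraries in the study. The other 4 libraries came from MC3T3 cells given 25% medium conditioned by LLC1, a mouse tumour cell line, and enter no value below. Every culture received 10 mM beta-glycerophosphate, a phosphate donor, and 100 μg/mL ascorbic acid, the cofactor of collagen hydroxylation. The NCM cells are taken as the vehicle controls because they are the only group not labelled for LLC1 medium, and the labels do not spell NCM out. The line is the only source of cells, its subclone is not named, and the labels do not say that the 4 libraries came from separate cultures. The spread between them, and any p-value resting on it, may therefore be technical.

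Osteoblasts are the cells that form bone. They secrete an osteoid made mainly of type I collagen, a triple helix of 2 alpha 1 chains and 1 alpha 2 chain, together with acidic and calcium-binding proteins, and then direct calcium phosphate into it. Runx2 and Sp7 (osterix) are the transcription factors needed for commitment to the lineage, and Bglap (osteocalcin) is a late product of the mineralizing cell. Ascorbic acid lets the procollagen chains fold and leave the cell, and beta-glycerophosphate releases phosphate when alkaline phosphatase cleaves it.

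Poly(A) RNA was sequenced, and each library held between 27974653 and 31132450 counts assigned to genes, 117598830 in all. Levels are given as CPM, a gene's counts relative to the library total after TMM scaling (factors of 0.978 to 1.02), and, where different genes are compared, as TPM, which also divides by the gene length in the deposited table and is computed over protein-coding genes. An order given in CPM is one of counts, in which long transcripts gain. Of 43346 listed genes, 12654 reached 1 CPM in all 4 libraries, among them 11229 of the 22032 protein-coding genes (51.0%), and 7257 protein-coding genes had no count in any library. Protein-coding genes took 96.6% to 96.9% of counts. Counting error alone amounts to 17.9% to 18.9% of a level of 1 CPM and to 1.79% to 1.89% of a level of 100 CPM. The highest Pearson correlation of log2 CPM between a pair of libraries was 0.996 and the lowest 0.992, and no pair agreed within sampling noise, so all 4 were counted. Library NCM3 stood furthest from the others (of 9102 protein-coding genes at 10 CPM or more, 36 lay 0.5 or more on the log2 scale above the mean of the other 3 and 51 below), and the values it moves most are given below with and without it.

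The most abundant protein-coding transcript by CPM was Col1a2, the alpha 2 chain of type I collagen (chr6:4504814-4541543, mm10). It reached 39158, 35957, 48678 and 41508 CPM in NCM1 to NCM4, a mean of 41325 ± 5404 (SD, n = 4). It was the first gene in each of the 4 libraries and by itself took 4.13% ± 0.48 of all counts. Sparc (osteonectin, a collagen- and calcium-binding glycoprotein; chr11:55394500-55420080) followed in every library with 25634, 24824, 29166 and 25071 CPM, a mean of 26174 ± 2023. Col1a1, the alpha 1 chain (chr11:94936224-94953042), was the third in every library with 15877, 15511, 22422 and 17345 CPM, a mean of 17789 ± 3189. Ibsp (bone sialoprotein, an acidic protein of mineralized matrix; chr5:104299171-104311469) reached 13798, 12645, 14730 and 14390 CPM, a mean of 13891 ± 915. Its range overlapped that of Eef1a1, the elongation factor that brings aminoacyl-tRNA to the ribosome, at 14848, 13539, 13247 and 11990 CPM. Ibsp ranked the fourth in NCM3 and NCM4 and the fifth in NCM1 and NCM2, with Eef1a1 in the other place. In Col1a2, Sparc, Col1a1 and Ibsp the highest of the 4 values was that of NCM3. Without NCM3 their means were 38874 ± 2786, 25176 ± 415, 16244 ± 971 and 13611 ± 887 CPM.

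**Figure D1:**
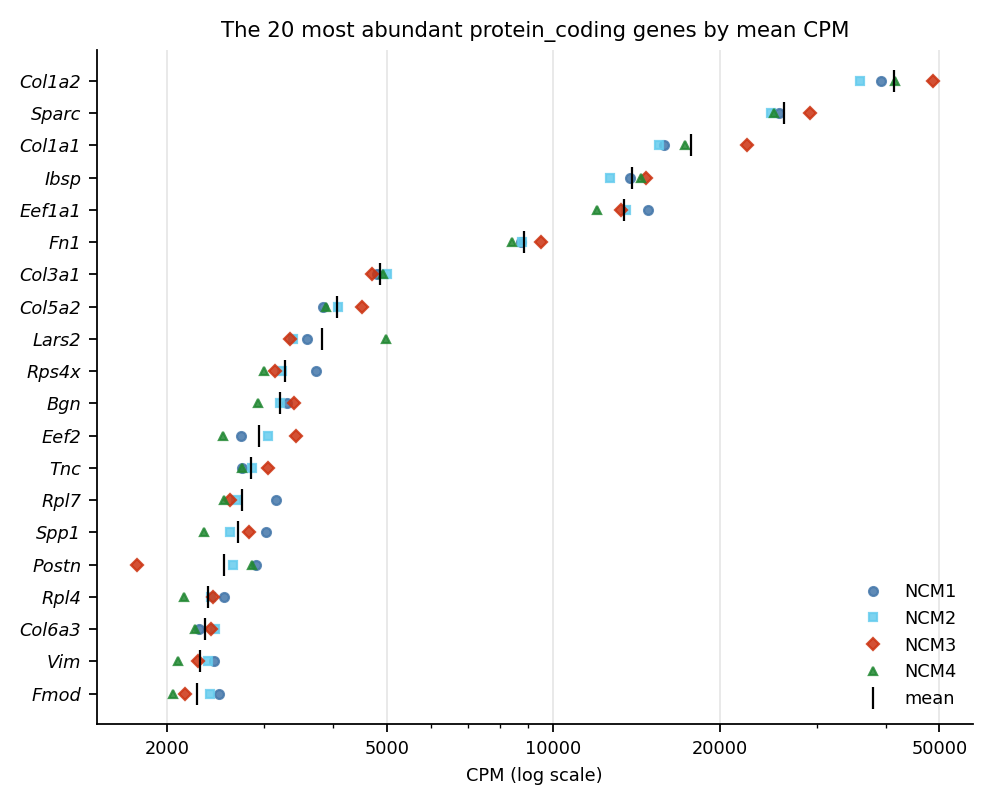
The 20 protein-coding genes with the highest mean CPM, with 1 marker for each of the 4 libraries and a tick at the mean, on a logarithmic axis of CPM. Col1a2 leads at a mean of 41325 CPM, and 13 of the 20 genes encode matrix proteins.

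Matrix genes filled most of the upper ranks. Of the 20 most abundant protein-coding genes by CPM, 13 encode extracellular matrix proteins, 3 are cytosolic ribosomal proteins (Rps4x, Rpl7, Rpl4), 2 are elongation factors (Eef1a1, Eef2), and the other two are Lars2, a mitochondrial leucyl-tRNA synthetase, and Vim, the intermediate filament vimentin. The matrix genes below the leading 4 were Fn1 (fibronectin, 8858 ± 459 CPM), Col3a1 (4855 ± 129), Col5a2 (4070 ± 305), Bgn (biglycan, 3204 ± 199), Tnc (tenascin C, 2841 ± 147), Spp1 (osteopontin, 2693 ± 294), Postn (periostin, 2537 ± 529, or 2795 ± 142 without NCM3), Col6a3 and Fmod (fibromodulin, 2270 ± 199). The pool was concentrated: the 4 most abundant genes held 9.91% ± 0.98 of counts, the 10 most abundant 13.7% ± 0.92 and the 100 most abundant 26.9% ± 0.79. The 693 most abundant protein-coding genes held 50% of the counts of all genes.

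Scaling by length changed the order, since long collagen transcripts yield more fragments per molecule. On the TPM scale Sparc was first (26064 ± 1531 TPM), followed by Ibsp (22544 ± 1542), Eef1a1 (18028 ± 1288), Rpl32 (11445 TPM), Col1a2 (11417 ± 1365) and Col1a1 (9082 ± 1492). Of the 20 genes with the highest TPM, 12 are cytosolic ribosomal proteins and 5 are matrix genes (Sparc, Ibsp, Col1a2, Col1a1, Spp1), and 8 of the 20 were also among the 20 highest by CPM. The TPM of Sparc exceeded that of Ibsp in all 4 libraries, by 1.07 to 1.22 times with the deposited lengths. With the lengths of principal transcripts the excess was 1.57 to 1.78 times, and in counts 1.74 to 1.98 times. The place of Col1a2 depends on the length used: the deposited table gives it 12136 bases, whereas its principal transcript in GENCODE M21 has 5348, and with principal transcripts it was the second at 19193 ± 2297 TPM while Rpl32 stood at 4838.

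The chains of type I collagen heterotrimers were compared directly, because both come from the same cells and libraries. In counts Col1a2 exceeded Col1a1 by 2.47, 2.32, 2.17 and 2.39 times in NCM1 to NCM4 (2.34 ± 0.13). Per deposited length the ratio was 1.26 ± 0.07, and per principal transcript 2.59 ± 0.14. The Col1a2 transcript was thus above the Col1a1 transcript in each library on all 3 scales, but by an amount that the length model moves by more than the spread between libraries.

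Fibrillar collagens as a family took 6.62%, 6.43%, 8.19% and 7.18% of counts, 7.11% ± 0.79, or 6.74% ± 0.39 without NCM3. All 11 listed members were detected at 1 CPM or more in the 4 libraries. After the type I chains and Col3a1 came the type V chains, which nucleate fibrils (Col5a2, and Col5a1 at 1408 ± 136 CPM), and the type XI chains Col11a1 (1013 ± 68.4) and Col11a2 (430 ± 111, or 375 ± 21.9 without NCM3). Col2a1, the collagen of cartilage, stood at 53.9 CPM. Col1a1 exceeded Col3a1, the type III collagen of soft connective tissue, by 5.50 ± 1.12 times in TPM, by 3.45 ± 0.70 times per principal transcript and by 3.68 ± 0.75 times in counts. Among 33 other collagen genes 17 reached 1 CPM in all libraries, led by the type VI beaded filament chains (Col6a3 at 2345 CPM, Col6a1 at 1758, Col6a2 at 978) and Col12a1 (1571 ± 302), which decorates fibrils. Col4a1 and Col4a2 of basement membranes were at 108 and 92.4 CPM, and Col10a1, the collagen of hypertrophic cartilage, had no count.

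The list of bone matrix and mineralization genes, not all of them restricted to bone, took 4.47% ± 0.24 of counts and 5.98% ± 0.31 of summed TPM. Sparc and Ibsp made up nearly all of the share of counts, and the rest of the list took 0.463% ± 0.037 of counts. Mgp (matrix Gla protein, an inhibitor of calcification) was at 366 ± 39.5 CPM. The enzymes that release phosphate or act on matrix vesicle lipids differed widely in level: Smpd3 (neutral sphingomyelinase) reached 354.8 TPM, Phospho1 512.6 TPM and Alpl (tissue-nonspecific alkaline phosphatase) 52.0 ± 8.18 TPM. Alpl reached 53.5, 60.7, 78.3 and 57.9 CPM. NCM3 was again the highest of the 4, and the mean without it was 57.4 ± 3.60 CPM. Enpp1, the enzyme that makes the mineralization inhibitor pyrophosphate, had 7 counts in all 4 libraries together.

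Osteocalcin is encoded in mice by 3 neighbouring genes, Bglap, Bglap2 and Bglap3, which are near-identical in sequence, so the split of reads among them is uncertain. Bglap was counted at 118, 97.0, 175 and 122 CPM and Bglap2 at 117, 98.0, 186 and 131 CPM. Their sum with Bglap3 was 248, 204, 381 and 271 CPM (276 ± 75.6), and NCM3 was the highest. Bglap alone averaged 128 ± 33.5 CPM, and 112 ± 13.3 without NCM3. On the TPM scale Bglap (693 ± 168) lay far below Sparc, Ibsp and Spp1 (5474 ± 472). Ifitm5, a membrane protein largely restricted to mineralizing osteoblasts, reached 992 ± 168 TPM. In CPM it was at 210 ± 40.3, and at 190 ± 7.72 without NCM3.

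Bglap and Ibsp carry a TATA-type match before the start, and both are shown because they were the only osteoblast markers in which one was found. The 50 bases before each annotated start, from the RefSeq promoter table (GRCm38.p6, which has the same chromosomes as mm10), were searched for TATAAA and for TTTATA, its reverse complement. Windows were present for 10 of the 17 osteoblast markers. Capitals mark the match, and both sequences read in the direction of transcription (Ibsp on the plus strand at chr5:104299237-104299286, Bglap on the minus strand at chr3:88384467-88384516).
Ibsp: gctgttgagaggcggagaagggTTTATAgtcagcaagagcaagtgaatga
Bglap: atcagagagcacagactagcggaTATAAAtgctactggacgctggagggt
Among the 16 of the 20 most abundant genes with a window, 4 held either motif (Ibsp, Eef2, Postn, Vim), against 4.17% of all 27025 genes of the table and 1.96% of protein-coding genes detected in all 4 libraries. None of the 8 fibrillar collagens with a window held one. A match is only a description of these letters.

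Proteins that build, cross-link and organise the collagen fibril were well represented. Of 33 genes for collagen modification and assembly, 28 reached 1 CPM in all libraries, and together they took 0.949% ± 0.032 of counts. P4hb, a subunit of prolyl hydroxylase, was steady at 1410, 1410, 1426 and 1360 CPM. Lox (lysyl oxidase, which forms cross-links) stood at 1262 CPM and Serpinh1 (Hsp47, the procollagen chaperone) at 1248 ± 148, or 1177 ± 49.8 without NCM3. Small leucine-rich proteoglycans took 0.809% ± 0.042, led by Bgn, Fmod and Dcn (decorin, 813 CPM). Aspn and Ogn of this family were lowest in NCM3: Aspn was counted at 555, 513, 322 and 589 CPM and Ogn at 361, 318, 221 and 398 CPM. Without NCM3 their means were 552 ± 37.8 and 359 ± 40.0 CPM. Matrix glycoproteins and large proteoglycans took 2.37% ± 0.07 through 53 of 77 genes, whereas Mfap2, Efemp1, Fbln1 and Spon1 of that list had no count. A gene without a count in any library has an upper limit of 0.0255 CPM (3 of 117598830 counts; counting error only, as the reads carry no molecular identifiers).

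Taking the 6 matrix lists as 1 set, 190 genes held 15.98%, 15.78%, 17.80% and 16.45% of counts, 16.5% ± 0.91, or 16.1% ± 0.35 without NCM3. Per length the same genes held 11.7% ± 0.54 of summed TPM. NCM3 was above the other 3 libraries in this share, mainly through Col1a2 and Col1a1. Of the 152 matrix genes with enough counts to test, 128 varied between the libraries by more than counting error (chi-square test with 3 degrees of freedom, Benjamini-Hochberg adjusted p under 0.05). Over all genes the same test called 8181 of 14735, or 55.5%. That share rests partly on single libraries: without NCM3 it was 5347 of 14770 (36.2%), and without NCM4 43.4%. Among protein-coding genes alone 59.8% were called, and the test calls genes with many counts more readily. The matrix share (84.2%) was below that of cytosolic ribosomal proteins (98.8%) and the cytoskeleton list (90.7%). It was above that of the metabolic (75.2%) and secreted (78.8%) lists, so a high share is not particular to matrix genes. The matrix members had a median biological coefficient of variation of 10.9%, against 6.13% for all protein-coding genes tested.

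**Figure D2:**
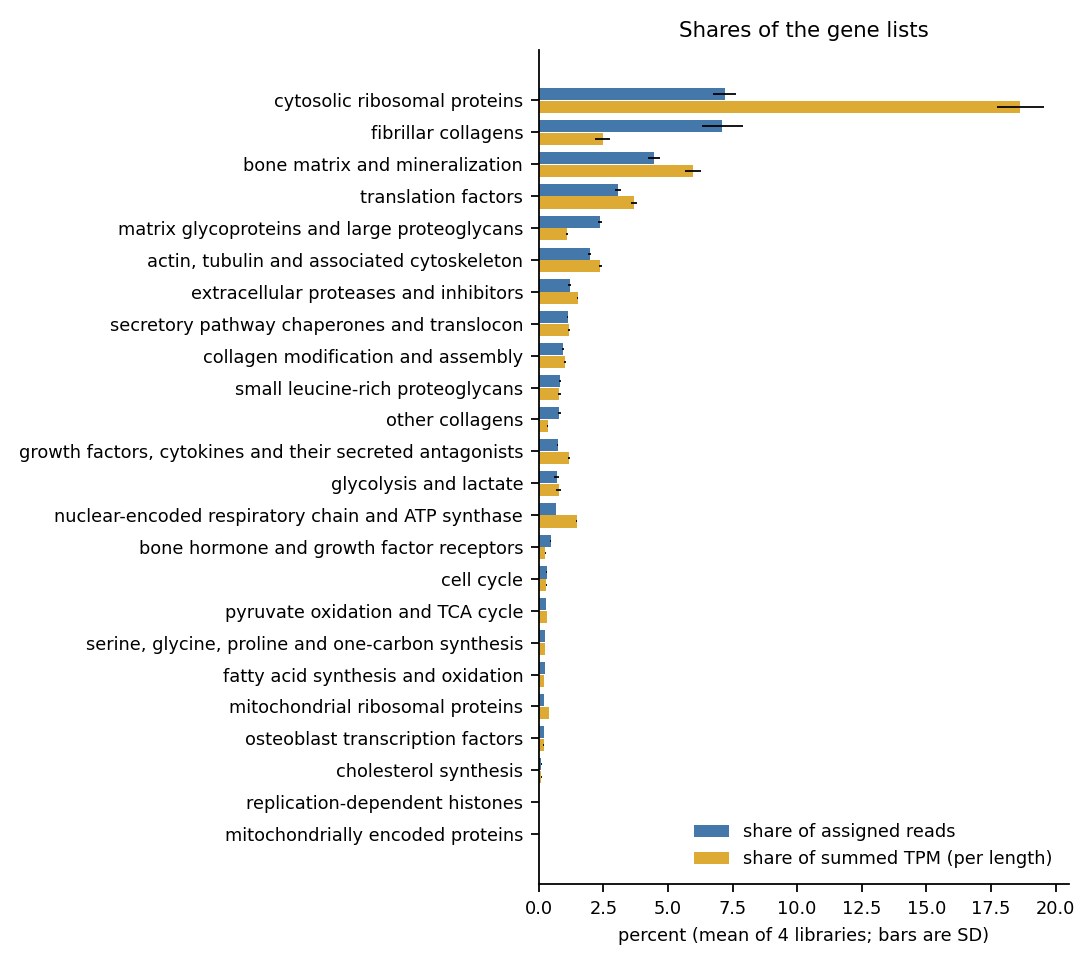
Share of counts (blue) and share of summed TPM (yellow), in percent, of 24 gene lists; bars are means of the 4 libraries and error bars are SD. Fibrillar collagens hold more of the counts (7.11%) than of the TPM (2.48%), and cytosolic ribosomal proteins the reverse (7.20% and 18.6%).

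Signalling proteins, proteases and their inhibitors that the cells export took 1.92% ± 0.09 of counts and 2.67% ± 0.05 of summed TPM, through 121 detected genes of 340 on 2 lists. With the chaperones and translocon of the export route, the 3 secreted lists took 3.04% ± 0.11 of counts and 3.85% ± 0.05 of TPM. Of 228 growth factors, cytokines and antagonists 75 reached 1 CPM in all libraries. Lgals1 (galectin 1) led with 1470 CPM, followed by Chrdl1, a BMP antagonist, at 930 ± 50.1 CPM. Tnfrsf11b, the gene of osteoprotegerin, the decoy receptor that restrains osteoclast formation, was among the least variable members at 509, 488, 507 and 505 CPM. Wif1 and Fst, antagonists of Wnt and activin signals, were at 341 and 249 CPM, and Csf1, the survival factor of osteoclast precursors, at 115. Cxcl12 (113 CPM), Igf2 (105 ± 30.8, or 119.8 ± 13.3 without NCM3), Vegfa (81.4), Bmp4 (75.6) and Wnt10b (65.0) were also present. Bmp2, Sfrp1 and Igfbp3 had no count.

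The protease list held 46 detected genes of 112. Mmp2 (gelatinase A) reached 1788 ± 88.8 CPM, the protease inhibitor Cst3 (cystatin C) 1521 ± 119 and the prohormone-processing carboxypeptidase Cpe 1427 CPM. Serpinf1, whose loss causes a mineralization defect in humans, was at 831 ± 96.4 CPM, Mmp14 at 430 and Mmp13 at 290. Pappa2, a protease that cleaves IGF-binding proteins, varied the most of these: it was counted at 1571, 1830, 697 and 1361 CPM. NCM3 lay far below the other 3, and the mean of 1364 ± 485 CPM became 1587 ± 235 without it. The machinery for export, 50 chaperones and translocon genes of the endoplasmic reticulum, was detected in full and took 1.12% ± 0.03 of counts, led by Hsp90b1 (1225 CPM), Pdia3 (846), Hspa5 (704 ± 29.8) and Calr (689).

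Genes of the translation apparatus were the largest set per length. Cytosolic ribosomal proteins took 7.49%, 7.34%, 7.43% and 6.54% of counts (7.20% ± 0.45) but 18.6% ± 0.90 of summed TPM. With translation factors (3.06% ± 0.12 of counts) and mitochondrial ribosomal proteins (0.219% ± 0.002) the set reached 10.5% ± 0.55 of counts and 22.7% ± 0.98 of TPM. Of 87 cytosolic genes 83 were detected in all libraries and 81 had a mean of 100 CPM or more, with Rps4x (3270 ± 311 CPM), Rpl7 and Rpl4 in front. The others were paralogs that are used in few tissues, for example Rpl10l and Rpl39l with no count and Rpl3l with 6 counts. NCM4 was the lowest library for 73 of the 83 detected members, with a median of -0.24 (log2) to the mean of the other 3, whereas it was the lowest for 27.9% of all 9102 protein-coding genes of at least 10 CPM, and without it the share was 7.42% ± 0.08. By contrast the mitochondrial ribosomal proteins, 77 of 77 detected, stayed between 0.216% and 0.222%. Mammalian ribosomal protein messages start within a pyrimidine tract. A run of 8 pyrimidines within 10 bases of the annotated start was found in 22 of 62 ribosomal protein promoters (35.5%) and in 8.71% of all genes of the table.

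The ribosomal protein with the widest spread, Rpl37a, has a near-identical copy elsewhere in the genome. Rpl37a (chr1:72711260-72713809) was counted at 313, 784, 341 and 637 CPM, and Gm4149 (chr13:75644864-75645226), listed as a separate gene, at 534.5, 144.9, 597.7 and 113.8 CPM. The libraries high for one were low for the other, and the sum was 848, 929, 938 and 751 CPM, with a coefficient of variation of 10.1% against 44.3% (biological) for Rpl37a alone. The Gm4149 transcript aligned to the Rpl37a transcript over 276 bases at 99.6% identity. The sole difference was T198C (Rpl37a base first, positions counted from the first aligned base), in capitals below within 30 bases on either side, from GENCODE M21 transcripts.
Rpl37a: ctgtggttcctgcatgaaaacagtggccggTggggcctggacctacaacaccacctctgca
Gm4149: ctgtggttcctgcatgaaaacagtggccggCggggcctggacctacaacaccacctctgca
Reads that lie within the aligned 276 bases and miss this base match both loci equally. How the authors' counting placed them is not given in the sources used here. Neither gene's own level should be read from these counts.

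**Figure D3:**
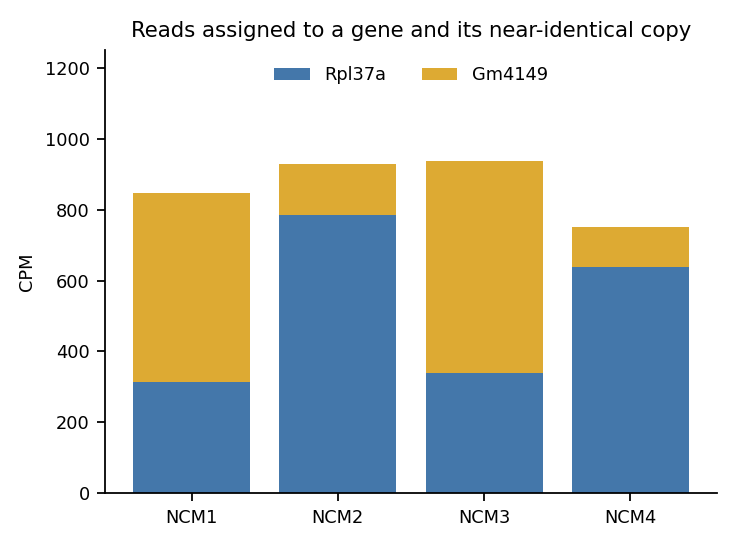
CPM of Rpl37a and of its near-identical copy Gm4149 in the 4 libraries, stacked so that the bar height is their sum. The split between the genes changes from library to library while the sum stays between 751 and 938 CPM.

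Metabolic genes took a small share, 2.25% ± 0.10 of counts and 3.11% ± 0.08 of summed TPM for 221 genes, 200 of them detected. The nuclear-encoded respiratory chain and ATP synthase list was nearly complete (78 of 82) and steady at 0.678% ± 0.006 of counts and 1.47% ± 0.01 of TPM, with Atp5b, the catalytic beta subunit, at 901, 899, 874 and 889 CPM. Glycolysis and lactate genes took 0.698%, 0.787%, 0.747% and 0.558% of counts (0.697% ± 0.10) and 0.776% ± 0.10 of TPM. NCM4 was the lowest library for 15 of the 17 members at 10 CPM or more, by a median of -0.36 (log2), against 27.9% of all such genes. Gapdh, often used as a reference gene, was counted at 1308, 1473, 1544 and 973 CPM. Ldha, the muscle-type lactate dehydrogenase subunit, was at 1084, 1198, 1118 and 838 CPM, with its partner Ldhb at 1.10 CPM and the lactate exporter Slc16a3 without a count. Pgk1 and Tpi1 were also lowest in NCM4, at 602 and 604 CPM against means of 728 and 797.

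The remaining metabolic lists were smaller and took at most 0.284% of counts each. The pyruvate oxidation and TCA cycle list held 0.284% ± 0.005 (Pdha1 at 317 CPM, Cs at 214), synthesis of serine, glycine, proline and one-carbon units 0.248% ± 0.003 (Psat1 at 192), and fatty acid metabolism 0.240% ± 0.002. Cholesterol synthesis took 0.1002% ± 0.0061, and here NCM4 was the highest library for 14 of 19 members, against 23.4% of all genes of at least 10 CPM. The mitochondrial chromosome gave no information: its 37 genes, 13 of them protein-coding, are listed at 0 in every library although all cells use them. Instead 6 nuclear copies of mitochondrial genes, such as Gm13340 (97.6% identical to mt-Co1 over 1545 bases), summed to 760, 638, 664 and 1036 CPM, so the respiratory share above leaves out the mitochondrially encoded subunits.

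All 17 osteoblast markers were present at 1 CPM or more, as the label of the cells has it. Their summed level was between 94447 and 121300 CPM. Sp7 was counted at 502, 493, 594 and 527 CPM (529 ± 45.8) and Runx2 at 480, 422, 492 and 485 CPM (470 ± 32.0), and per length Sp7 (611 ± 47.1 TPM) exceeded Runx2 (178 ± 12.4 TPM). Cdh11 (osteoblast cadherin) stood at 955 ± 28.0 CPM and Pth1r (the receptor of parathyroid hormone) at 482 ± 78.8, or 443 ± 10.3 without NCM3. Other bone transcription factors were Mef2c (299 CPM), Tcf7 (180), Dlx5 (27.9) and Dlx3 (12.97), with Twist2 at 11 counts in all and Ebf2 at none. Of 35 hormone and growth factor receptors 30 were detected, with Fgfr2 (635 ± 11.7 CPM) first, then Pth1r, Fgfr1 (348), Pdgfra (276), Lrp6 (185) and the vitamin D receptor Vdr (92.7).

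Osteocyte genes, which mark the cell after it is enclosed in bone, were present in part. Of 11 markers 8 had a mean of 1 CPM or more, led by Pdpn (41.9 CPM), Phex (33.4 ± 5.07) and Irx5 (22.6). Fam20c (19.4) and Hpse (14.7) followed, and Dmp1 and Mepe were low at 4.82 ± 1.31 and 4.44 ± 0.65 CPM. Sost, the gene of sclerostin, had 1 count in the 4 libraries together and Fgf23 none. Chondrocyte markers reached 1 CPM for 6 of 15 genes. The highest were Col11a1 and Col11a2, the type XI chains that osteoblasts share. Hapln1 (107 CPM), Col2a1 (53.9), Sox9 (20.4) and Comp (9.95) followed, while Acan had 2 counts in all and Matn1 and Col10a1 none. Of 11 adipocyte markers 3 reached 1 CPM, Plin4 at 19.4, Cebpa at 4.68 and Fabp4 at 4.35 CPM, with Pparg at 0.143 CPM, Adipoq at 6 counts and Plin1 at 1 count. Of 12 markers of marrow stroma and pericytes 9 had a mean of 1 CPM or more, the highest share among the 16 other lineages. Pdgfra stood at 276 ± 10.1 CPM, Cspg4 at 162 ± 34.8 (144.8 ± 6.23 without NCM3), Pdgfrb at 156 ± 9.28 and Cxcl12 at 113 ± 8.01, whereas Lepr was at 3.57 CPM and Rgs5 had 1 count in all. Of 7 tendon and ligament markers 4 had a mean of 1 CPM or more. Fmod was high, Egr1 was at 30.2 CPM, Mkx at 10.3 and Scx at 5.97, and Tnmd had no count. Smooth muscle markers had a mean of 1 CPM or more for 6 of 9 genes. Acta2 (832 ± 66.2 CPM), Smtn (128), Tagln (98.1) and Lmod1 (22.9) led, while Myh11 stood at 0.337 CPM and Myocd at no count.

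Markers of blood and vessel lineages were low or had no count, apart from Ctsk and Flt1. The lymphocyte and pan-leukocyte list summed to between 0 and 0.283 CPM, with Cd3e at 0 and Ptprc at 4 counts in all. Macrophage markers summed to between 15.1 and 20.2 CPM, chiefly Lyz2 (11.5) and Cd14 (3.04), with Csf1r at 1.21 CPM. Of 10 osteoclast markers only Ctsk (315 ± 17.5 CPM) and Itgb3 (14.3) reached 1 CPM, while Calcr and Dcstamp had no count and Acp5 had 2 counts. In endothelium Flt1 (56.9 ± 4.88 CPM) and Vwf (2.34) reached 1 CPM, with Cdh5 and Kdr at 0 and Pecam1 at 0.179 CPM. Of 12 markers of neurons and glia 4 had a mean of 1 CPM or more, led by Tubb3 (50.7 ± 11.2 CPM), and Snap25, Rbfox3 and Sox10 had no count. Epithelial and hepatocyte lists had no marker at 1 CPM. In all, 49 of 170 markers of the 16 other lineages had a mean of 1 CPM or more and 67 had no count. Of all 22032 protein-coding genes, 11438 had a mean of 1 CPM or more and 7257 had no count. The share of markers without a count was thus near that of all protein-coding genes. In bulk RNA a small number of cells of a type cannot be told apart from a low level in every cell.

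**Figure D4:**
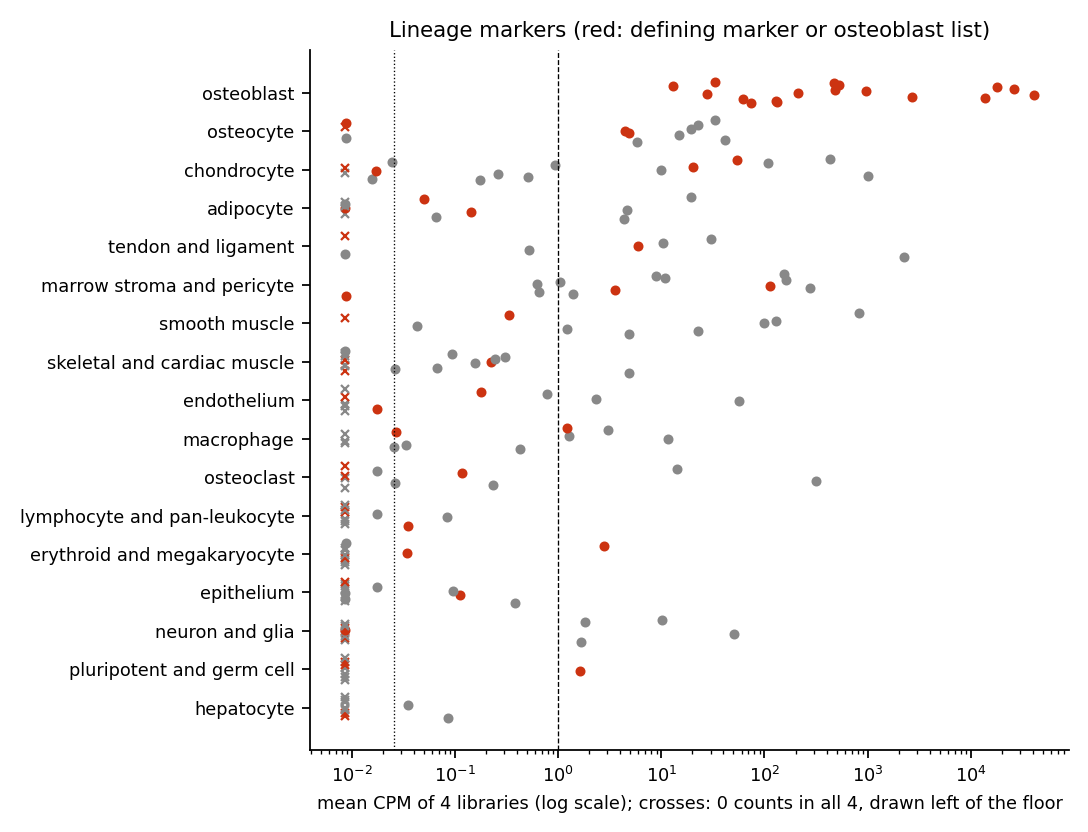
Mean CPM (logarithmic axis) of each marker gene in 17 lineage lists; red points are osteoblast genes or defining markers, grey points the other members, and crosses are genes without a count, drawn left of the limit of 0.0255 CPM (dotted line). The dashed line is 1 CPM; all 17 osteoblast markers lie to its right, and the lymphocyte, epithelial and hepatocyte lists lie to its left.

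Genes outside the coding set took little. Yam1, a noncoding gene (chr17:39846958-39848788) that overlaps the rRNA-related gene Rn18s-rs5 of RefSeq over 1245 of its bases, was counted at 5999, 6735, 7279 and 8044 CPM, or 0.597% to 0.817% of counts. Lars2 was counted at 3579, 3385, 3346 and 4972 CPM and Gm15564, which shares 72 bases with it at 98.6% identity, at 105, 102, 94.0 and 209 CPM. Both were highest in NCM4, as were Yam1 and the mitochondrial copies, and the part of rRNA-like and mitochondrial sequence in these levels was not tested.

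The spread between libraries was small for most genes. The biological coefficient of variation (that left after counting error) had a median of 5.61% over 9102 protein-coding genes of at least 10 CPM and 5.10% over 1928 genes of at least 100 CPM, and edgeR's common value was 8.58%. Of protein-coding genes at 100 CPM or more, Msrb3, Eif4e2, Myo5a, Nek9 and Palm2Akap2 varied least, with total coefficients of variation of 0.67% to 0.74%; the exons of Palm2Akap2 overlap those of Akap2. Those of 10 CPM or more that varied most were Nov, Rpl37a, Cd34, Igfbp2, Pappa2, Atp2a3, Tppp3, Bglap3, Cav1 and Itga8. Nov (CCN3, a matricellular regulator) was counted at 25.3, 36.8, 7.04 and 23.7 CPM, a biological coefficient of variation of 52.8%. Cd34, a surface marker of progenitor cells, was counted at 17.8, 16.4, 7.36 and 22.4 CPM and Cav1 (caveolin 1) at 41.6, 36.3, 18.1 and 39.2 CPM. In Nov, Cd34, Cav1, Itga8 and Pappa2 the low library was NCM3.

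NCM3 differed from the other libraries in a pattern that named genes share. Of the 17 osteoblast markers 16 were above the mean of the other 3 libraries in NCM3, by a median of 0.32 (log2), and 14 had their highest value there, whereas NCM3 was the highest library for 35.5% of all 9102 protein-coding genes of at least 10 CPM. Among those 9102 genes, 4565 were above the mean of the other 3 in NCM3. Bglap2 lay 0.69 above, Bglap 0.64, Ifitm5 0.50, Col1a1 0.46, Alpl 0.45, Pth1r 0.44 and Col1a2 0.32. Below the others lay Nov by -1.95, Cd34 by -1.30, Pappa2 by -1.19, Aspn by -0.78, Ogn by -0.70 and Postn by -0.67. Cell cycle genes were lowest in NCM3 for 22 of 32 members, for example Mki67 at 244, 267, 202 and 281 CPM, and highest in NCM4 for 20 of 32. Over all 9102 genes NCM3 was the lowest library for 32.0% and NCM4 the highest for 23.4%.

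Base composition moved with the same library. Across 9074 genes the Spearman correlation between transcript GC content and the log2 difference of a library from the other 3 was 0.70 in NCM3, -0.54 in NCM1 and in NCM4, and 0.14 in NCM2, given as a description. In NCM3 the median difference went from -0.11 in the lowest of 5 groups of genes by GC content to 0.20 in the highest. After the median of its GC group was taken from each gene, 17 of 17 osteoblast markers were above 0 in NCM3, by a median of 0.20 (Cdh11, the marker that had been below, only by 0.002), with Col1a2 at 0.12, Col1a1 at 0.26, Sp7 at 0.15 and Bglap at 0.44, and Pappa2 and Nov were at -1.17 and -1.88. Taking a group's median away leaves as many of its genes above 0 as below, by construction. For cytosolic ribosomal proteins in NCM4 the median went from -0.24 to -0.19 in this way. The part of base composition in these differences was not tested further, and a difference in library preparation and one between cultures cannot be told apart here.

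**Figure D5:**
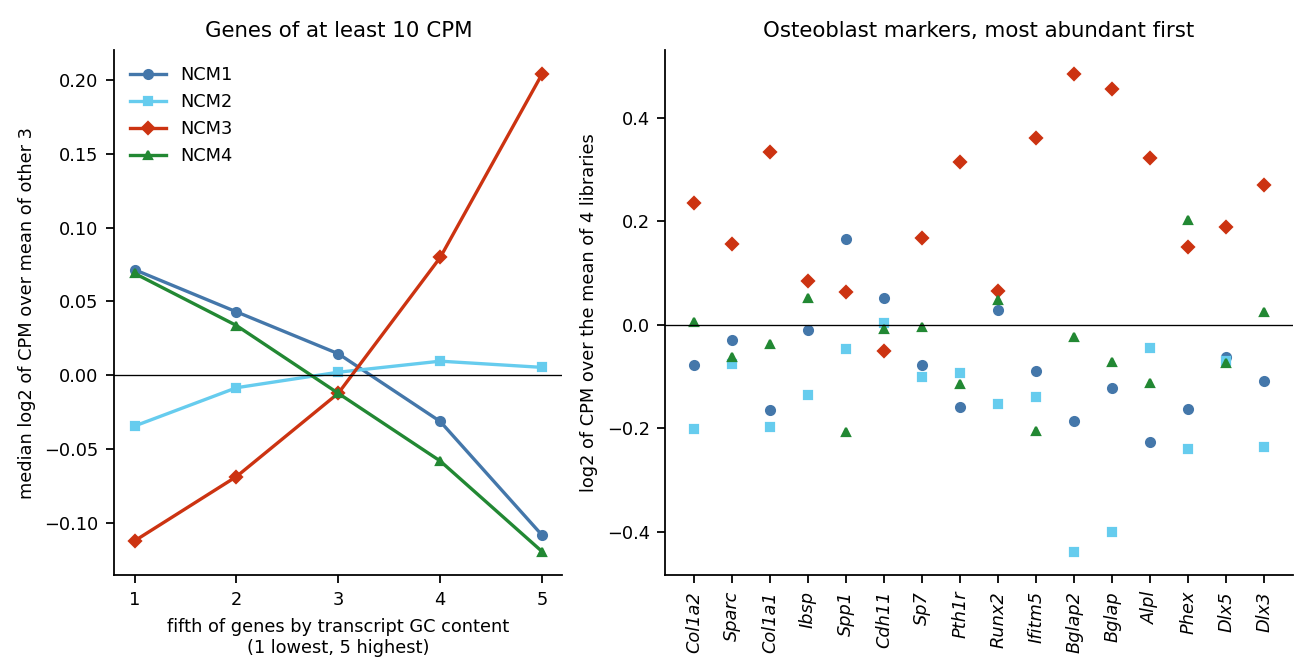
Left, the median log2 difference of each library from the mean of the other 3 in 5 groups of genes by transcript GC content; right, 16 osteoblast markers in each library as log2 of the level over the 4-library mean. NCM3 runs from -0.11 at low to 0.20 at high GC content, and 13 of the 16 markers drawn have their highest value in it.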

How the data were processed

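Poly(A) libraries were made from 200 ng of total RNA with 12 PCR cycles by a kit that does not mark strand, per the labels' protocols, so antisense and overlapping genes cannot be separated. The deposited table holds unnormalized counts per gene with gene length and biotype; CASAVA, STAR, featureCounts and mm10 are named in the submitters' processing notes, and their versions, strand setting and treatment of reads that match several places are not given in the sources used here. From the 4 NCM columns CPM was computed with TMM factors (edgeR 4.0.16 in R 4.3.3; DESeq2 1.42.0 size factors as an alternative), and TPM from the deposited length over protein-coding genes, with the longest and the APPRIS principal transcript of GENCODE M21 as alternatives. Of 43346 genes 42462 matched that annotation by identifier. Spread was tested per gene with a chi-square test of homogeneity (3 degrees of freedom, Benjamini-Hochberg, threshold 0.05) over genes with a mean of 10 counts or more, in Python 3.11.15 with scipy 1.17.1. On simulated counts for the 4 NCM libraries without added variation it called 0 of 14647 genes, and with added variation in 200 genes it called 51.0% of those given 10%, 74.0% of those given 20%, and 6 of 14436 unchanged genes. Copies were aligned with blastn 2.17.0. Depth was 27974653 to 31132450 counts, the Wilson 95% interval of a list's share is at most 0.0139 percentage points to either side, and floors of 3 counts and intervals cover counting error only.

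The report describes 1 group and makes no contrast. Gene lists (41, with 1360 distinct genes) and lineage markers were chosen with earlier results of these data known; Rps3a1, missed by a name pattern, was added to its list after its values were seen. Named were the 20 highest protein-coding genes by CPM and by TPM, the 3 highest by TPM in each list, all osteoblast and all defining lineage markers, the 10 most variable genes of at least 10 CPM and the 5 least variable of at least 100 CPM. All other genes, among them further list members, Mtap and its neighbours, Gapdh, Yam1, Aspn, Ogn and the copies, were named after their values were seen. A few genes of these lists enter the counts of members but are not reported here by name.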

Additional observations from a re-analysis of the deposited data

Results flagged for a closer look

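In 7 of 75 groups of 4 values, 1 library lay apart from the other 3 by more than Dixon's 95% criterion allows for 4 samples. Chance alone does this in about 1 in 20 groups that are independent and not chosen by their values. Here 10 genes entered for their wide spread between these libraries, Tppp3 among them, and some lists contain others. The 7 of 75 therefore cannot be set against that rate. In NCM3, Pth1r was counted at 599.7 CPM against 431.7 to 451.9 in the others, Dlx5 at 31.75 CPM against 26.48 to 26.68, and Tppp3, a tubulin-binding protein, at 16.58 CPM against 8.605 to 9.347. The secretory chaperone list took 1.068% of counts in NCM3 against 1.13% to 1.139%. In NCM4, Lars2 stood at 4972 CPM against 3346 to 3579, cytosolic ribosomal proteins took 6.54% of counts against 7.34% to 7.493%, and protein-coding genes 96.62% against 96.88% to 96.92%.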

How the results depend on the processing

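The 17 osteoblast markers stayed at 1 CPM or more under every alternative run. The 12654 detected genes, the concentration of counts (13.7% in 10 genes, 26.9% in 100) and the common biological coefficient of variation (8.58%) stayed within 1.5 times or 1 SD under other scalings, filters and left-out libraries; without 1 library each they ranged over 12705 to 12748 genes, 13.31% to 14.03%, 26.5% to 27.1% and 6.83% to 9.64%. Genes varying beyond counting error, 8181, came to between 5347 and 7388 with 1 library left out; the 5347 are without NCM3, 5207 of them shared with the 8181. Markers of other lineages at their threshold were 49, 48 to 49 with 1 library left out, and 32 at 5 CPM. Without the most abundant member of each list, the shares of counts were 8.18% for matrix, 2.59% for secreted, 8.80% for ribosomal and 1.87% for metabolic genes; with 1 library left out they were 16.1% to 16.7%, 3.00% to 3.09%, 10.3% to 10.7% and 2.22% to 2.29%. Shares of TPM with the longest transcript were 3.56% for secreted, 24.5% for ribosomal and 3.499% for metabolic genes, and with the principal transcript, an alternative chosen after seeing the data, 3.49%, 24.5% and 3.399%. The matrix set as a whole moved by less than 1 SD, but lists within it moved by more, in opposite directions. With principal transcripts fibrillar collagens went from 2.48% ± 0.30 to 3.14%, and the bone matrix list from 5.98% ± 0.31 to 5.38%. With 1 library left out the shares of TPM for matrix, secreted, ribosomal and metabolic genes were 11.5% to 11.9%, 3.84% to 3.87%, 22.5% to 23.2% and 3.08% to 3.14%. The cause of these moves is the change of list or length itself. The levels of those named genes that were checked, a part of all, stayed within 1 SD in 252 of 252 alternatives. At fixed scaling, leaving 1 of 4 libraries out cannot move a mean by as much as 1 SD. Those alternatives therefore do not test how the levels depend on single libraries, and the same limit holds for the mean shares above. No paired analysis was possible because only 1 group was used and no test between groups was made. The planned residue composition was not run, as no protein table was used here.

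Depth limits little at these totals, but genes near 1 CPM carry a counting error of 17.9% or more, and a listed 0 says only that no read was assigned. Length models, copies and unknown treatment of multiply matching reads limit comparisons between genes more than depth does.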

Other observations

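Dividing-cell genes were present at day 7. The cell cycle list took 0.315% ± 0.019 of counts, with Top2a, the topoisomerase of dividing cells, at 250, 279, 205 and 279 CPM beside the Mki67 values given above. The inhibitor Cdkn1a stood at 445 CPM and Ccnd1 at 312 CPM. Replication-dependent histones, whose transcripts mostly lack a poly(A) tail, took 0.00479% of counts. The cytoskeleton list took 1.97% ± 0.05, with Actb at 1313 ± 100 CPM.

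Mtap, Cdkn2a, Cdkn2b and Dmrta1, 4 neighbouring protein-coding genes on chromosome 4 (chr4:89137122-89694772), had no count in any of the 4 libraries. Mtap encodes a methionine salvage enzyme that most cells use, and Cdkn2a and Cdkn2b encode cell cycle inhibitors. Runs of protein-coding neighbours without a count are common in this table: 367 of 2613 runs were as long or longer. These runs were counted whatever genes they hold, so they do not show how often a run includes a gene that most cells use. The cause was not tested.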
